A study of Rattus norvegicus with 12 samples.

Results

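Genes that mark dividing cells were followed through injury and treatment of the rat urethra. They are Mki67, Top2a, Cdk1, Ccnb1 and Pcna, which are 5 of the 32623 genes in the count table, and all 5 were tested. They were chosen by Ensembl ID (ENSRNOG00000028137, ENSRNOG00000053047, ENSRNOG00000000632, ENSRNOG00000058539 and ENSRNOG00000021264, in that order), by a rule that uses no measured value, though with earlier results of these data known. The count table gives no symbols, and the gene table at hand matched 0 of its IDs, so the pairing of these 5 IDs with their symbols was taken as given with the selection. RNA sequencing measured poly(A)-containing transcripts in urethral tissue of male rats in 4 groups of 3 libraries. Sham rats had no urethral injury. In the other 3 groups the urethra was injured mechanically and then received no further labelled treatment (injury), rapamycin (an inhibitor of the mTOR kinase) or a tetrahedral DNA nanostructure (TDN, a particle folded from synthetic DNA strands). Strain, age, dose, route and time of harvest are not in the labels, nor is it stated that untreated injured rats were given vehicle. Nothing states that replicate libraries are separate animals, so a p-value here covers only library-to-library spread, which may be technical.

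A cell that leaves rest copies its DNA in S phase and divides in mitosis. Pcna is the sliding clamp that holds DNA polymerases on the template, and it also serves DNA repair. Top2a untangles the copied DNA, and Mki67 encodes Ki-67, a protein that coats mitotic chromosomes and is the usual stain for cycling cells. Cdk1 is the kinase that drives entry into mitosis, and Ccnb1 encodes cyclin B1, its partner, whose transcript peaks in G2 and mitosis. After a wound of a lined tube such as the urethra, basal epithelial cells, fibroblasts, endothelial cells and recruited leukocytes can all enter the cycle. In tissue RNA, more cycling cells and more of a transcript per cycling cell cannot be told apart, nor can the cell types that carry it. Markers of these cell types and other cell cycle genes had been listed by symbol and were not evaluated, because the files do not pair IDs with symbols.

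Genes of this kind are known to share promoter elements, and since the 5 transcripts are followed together, the 250 bases before each start site are shown, 5′ to 3′ in the direction of transcription, from RefSeq on build GRCr8 (all 5 symbols matched). Capitals mark 3 motifs, each searched on both strands: the CCAAT box (CCAAT or ATTGG), the core of the cell cycle genes homology region or CHR (TTTGAA or TTCAAA), and an E2F site (TTTGGCGC or TTTCGCGC, or GCGCCAAA or GCGCGAAA on the other strand).
Mki67, chr1:199952594-199952843, minus strand: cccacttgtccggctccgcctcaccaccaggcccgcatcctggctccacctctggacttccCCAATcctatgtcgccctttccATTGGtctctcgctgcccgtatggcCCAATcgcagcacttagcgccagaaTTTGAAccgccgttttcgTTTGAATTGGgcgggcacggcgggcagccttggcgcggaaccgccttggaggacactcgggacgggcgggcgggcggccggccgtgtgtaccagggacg
Top2a, chr10:84473094-84473343, minus strand: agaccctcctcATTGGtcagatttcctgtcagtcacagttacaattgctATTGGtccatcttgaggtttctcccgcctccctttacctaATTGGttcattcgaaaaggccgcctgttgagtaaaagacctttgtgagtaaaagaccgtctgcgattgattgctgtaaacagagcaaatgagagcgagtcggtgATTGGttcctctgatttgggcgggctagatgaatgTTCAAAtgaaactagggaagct
Cdk1, chr20:19265043-19265292, plus strand: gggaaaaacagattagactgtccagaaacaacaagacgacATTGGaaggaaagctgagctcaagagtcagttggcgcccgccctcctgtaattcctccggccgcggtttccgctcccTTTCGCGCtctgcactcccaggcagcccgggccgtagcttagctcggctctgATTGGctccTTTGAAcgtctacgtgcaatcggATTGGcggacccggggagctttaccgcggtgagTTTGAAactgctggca
Ccnb1, chr2:33655226-33655475, minus strand: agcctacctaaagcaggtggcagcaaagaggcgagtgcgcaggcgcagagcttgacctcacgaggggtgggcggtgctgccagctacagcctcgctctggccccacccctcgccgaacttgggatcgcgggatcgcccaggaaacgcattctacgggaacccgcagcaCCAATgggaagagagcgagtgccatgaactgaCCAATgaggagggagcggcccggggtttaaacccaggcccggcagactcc
Pcna, chr3:139955821-139956070, minus strand: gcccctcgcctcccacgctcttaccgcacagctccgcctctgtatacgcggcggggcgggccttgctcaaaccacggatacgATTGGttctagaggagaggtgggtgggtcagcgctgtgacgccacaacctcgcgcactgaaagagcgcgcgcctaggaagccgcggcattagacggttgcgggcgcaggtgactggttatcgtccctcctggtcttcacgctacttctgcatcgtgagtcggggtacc
A CCAAT box was found in 5 of the 5 promoters and in 34.0% of all 33469 promoters of that length. At least 2 CCAAT boxes were found in 4 of the 5 (not in Pcna) and in 9.42% of all. The CHR core was found in Mki67, Top2a and Cdk1, beside 16.2% of all promoters, and lay 22 bases before the start in Top2a and 16 bases before it in the nearer of the Cdk1 matches. In Mki67 a CHR core 99 bases before the start shares a base with the CCAAT box 94 bases before it. The E2F site was found in Cdk1 alone, 133 bases before its start, beside 0.636% of all promoters. A GC box (GGGCGG or CCGCCC, not capitalised) was found in 5 of the 5 and in 30.5% of all. These are letter matches in a short window and no evidence of binding.

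Total counts ranged from 44765817 to 55928721 per library, and the lowest count of any of the 5 genes in a library was 135 (Ccnb1 in sham replicate 2, 95% Poisson interval 113 to 160). This interval covers counting error only. Levels are given in CPM, the count as a share of the library total after scaling by the trimmed mean of M values (TMM), and compare libraries for 1 gene, not genes with each other. Rapamycin replicate 2 stood apart, with a TMM factor of 0.660 against 0.873 to 1.13 in the other libraries and 17475 detected genes against 18659 to 19254.

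Among the mitotic genes, the cyclin transcript Ccnb1 stood at 3.33, 2.37 and 5.31 CPM in sham replicates 1 to 3 and at 36.5, 22.5 and 16.0 CPM in injury replicates 1 to 3. It stood at 20.7, 17.2 and 13.3 CPM in rapamycin and at 7.75, 5.36 and 5.33 CPM in TDN. Every TDN library thus lay above every sham library and below every injury and rapamycin library, though the lowest TDN value and the highest sham value were nearly equal. The kinase transcript Cdk1 stood at 4.28, 2.96 and 8.91 CPM in sham and at 46.4, 29.4 and 14.5 CPM in injury. In rapamycin it stood at 24.3, 35.5 and 12.9 CPM, and in TDN at 8.93, 6.39 and 7.52 CPM. For Cdk1 the injury and rapamycin libraries also lay above all sham and TDN libraries, while sham replicate 3 lay within the TDN range.

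The chromosome genes followed the same order of groups. Mki67 stood at 13.4, 5.85 and 22.0 CPM in sham and at 69.0, 37.7 and 39.3 CPM in injury. In rapamycin it stood at 40.2, 54.2 and 28.8 CPM, and in TDN at 25.8, 21.7 and 18.7 CPM. Sham replicate 3 again lay within the TDN range, and sham replicates 1 and 2 lay below it. Top2a stood at 13.1, 5.03 and 26.2 CPM in sham and at 84.4, 49.3 and 33.0 CPM in injury. In rapamycin it stood at 41.8, 75.2 and 30.2 CPM, and in TDN at 19.2, 16.7 and 17.7 CPM. Here sham replicate 3 lay above all 3 TDN libraries.

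Pcna, the replication clamp, had the smallest ratio of highest to lowest library among the 5 genes. It stood at 34.3, 38.2 and 46.9 CPM in sham and at 101, 72.3 and 58.0 CPM in injury. In rapamycin it stood at 93.5, 105 and 55.6 CPM, and in TDN at 56.3, 43.6 and 45.9 CPM. Rapamycin replicate 3 fell just below TDN replicate 1, so Pcna was the 1 gene for which rapamycin and TDN overlapped. Injury replicate 1 ranked first of the 12 libraries for the other 4 genes and second for Pcna, behind rapamycin replicate 2. This order for Pcna depends on the scaling. Rapamycin replicate 2 (TMM factor 0.660) held 3104 Pcna counts of 44765817, and injury replicate 1 (TMM factor 0.912) held 5145 of 55928721. Sham replicates 1 and 2 held the last 2 ranks for all 5 genes.

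**Figure D1:**
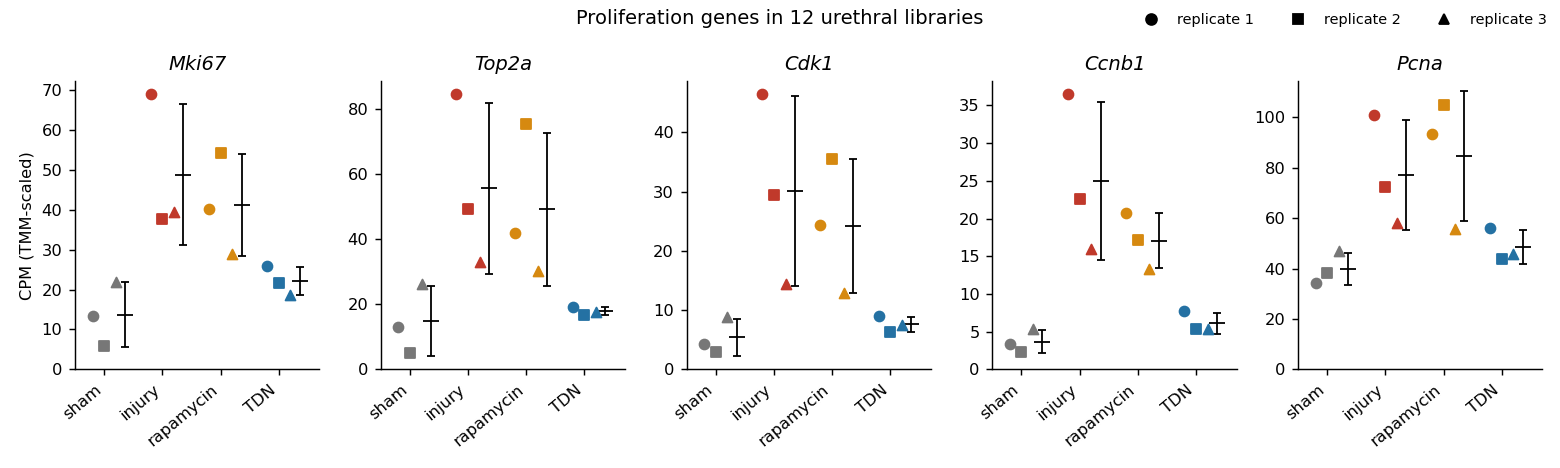
TMM-scaled CPM of the 5 genes (vertical axes, linear, from 0) in each of the 12 libraries; symbols give the replicate number, colours the group, and the black mark and bar the mean ± SD of 3 libraries. Injury and rapamycin libraries lie above sham and TDN libraries for 4 genes, and for Pcna rapamycin replicate 3 (55.6 CPM) falls beside TDN replicate 1 (56.3 CPM).

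Injury against sham asked what changed in the wounded urethra. Ccnb1 rose from 3.67 ± 1.50 to 25.0 ± 10.5 CPM (SD, n = 3 each), a 6.82-fold difference (log2 fold change 2.77, SE 0.41, edgeR adjusted p = 0.0285). It was 1 of 5 genes to pass, where 0.571% of the 17521 tested genes were called higher. Cdk1 averaged 5.38 ± 3.12 CPM in sham and 30.1 ± 16.0 CPM in injury, 5.59-fold apart (log2 2.48, SE 0.54, edgeR adjusted p = 0.0603). Top2a averaged 14.8 ± 10.7 and 55.6 ± 26.3 CPM (log2 1.91, SE 0.56, edgeR adjusted p = 0.112), and Mki67 13.7 ± 8.1 and 48.7 ± 17.6 CPM (log2 1.82, SE 0.45, edgeR adjusted p = 0.0790). Pcna averaged 39.8 ± 6.5 and 77.0 ± 21.8 CPM, a 1.94-fold difference (log2 0.95, SE 0.28, edgeR adjusted p = 0.113). All 5 genes had every injury library above every sham library, which 19.4% of tested genes did, and an unadjusted p under 0.05, which 13.9% of tested genes had in that direction. The median log2 fold change of the 5 was 1.91, beside -0.01 over all tested genes.

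The call of Ccnb1 was lost in several fits that left out 1 library, and these fits called few or no genes at all. Its edgeR adjusted p was 0.154 without sham replicate 1, 0.182 without sham replicate 2 and 0.0836 without injury replicate 1. Each of these fits called 0% of tested genes. It was 0.0512, 0.0633 and 0.0650 without TDN replicates 1, 2 and 3, which share the estimate of the spread. Over 20 alternatives of any method, the adjusted p of Ccnb1 ran from 7.35e-09 (DESeq2) to 0.182 (edgeR without sham replicate 2). The fits without a TDN library called 0.0391 to 0.0615% of tested genes. The log2 fold change of Ccnb1 stayed at 2.39 to 3.13 over the 20 alternatives. In the other direction, all 5 genes were called without injury replicate 3, where 11.9% of tested genes were, and without rapamycin replicate 2 (11.0%). DESeq2 also called all 5, and 11.1% of the genes to which it gave an adjusted p. Without rapamycin replicate 3, where 1.71% of tested genes were called, Cdk1 joined Ccnb1 (edgeR adjusted p = 0.0452 for Cdk1). Over 20 alternatives the adjusted p of Cdk1 ran from 0.000375 (DESeq2) to 0.234 (edgeR without sham replicate 1).

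The rapamycin group was next compared with uninjured tissue. Ccnb1, Cdk1, Mki67 and Pcna were called higher, 4 of 5 genes, where 9.54% of tested genes were called higher. Ccnb1 averaged 17.1 ± 3.7 CPM (SD, n = 3), 4.65-fold above sham (log2 2.22, SE 0.40, edgeR adjusted p = 0.0220), and Cdk1 24.2 ± 11.3 CPM, 4.50-fold above (log2 2.17, SE 0.54, edgeR adjusted p = 0.0386). Mki67 averaged 41.1 ± 12.7 CPM, 2.99-fold above sham (log2 1.58, SE 0.45, edgeR adjusted p = 0.0475), and Pcna 84.7 ± 25.9 CPM, 2.13-fold above (log2 1.09, SE 0.28, edgeR adjusted p = 0.0424). Top2a, at 49.1 ± 23.4 CPM, missed the threshold (log2 1.73, SE 0.56, edgeR adjusted p = 0.0604). All 5 had every rapamycin library above every sham library, as did 23.8% of tested genes. The number called was 0 without any 1 of the 3 sham libraries or without rapamycin replicate 1, fits that called 0.0056 to 0.443% of all genes in either direction, beside 12.3% with all libraries. It was 1 without injury replicate 2, rapamycin replicate 2 or any 1 of the 3 TDN libraries, fits that called 2.36 to 5.09% of all genes. With the replicate number as a block it was 3, in a fit that called 14.8% of all genes. Mki67 then had an edgeR adjusted p of 0.0526. Over 19 alternatives the adjusted p of Mki67 ran from 0.00589 (DESeq2) to 0.140 (edgeR without sham replicate 2).

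Rapamycin was then set against injury alone, the comparison that bears on mTOR inhibition. Ccnb1 averaged 1.47-fold lower in rapamycin (log2 -0.55, 95% interval -1.39 to 0.29), and Pcna 1.10-fold higher (log2 0.14, 95% interval -0.48 to 0.76). For Cdk1 the log2 difference was -0.31 (-1.45 to 0.82), for Mki67 -0.25 (-1.21 to 0.72) and for Top2a -0.18 (-1.38 to 1.02). The libraries overlapped for all 5 genes, where 1.74% of tested genes lay apart as higher and 2.20% as lower. By edgeR, DESeq2 and limma voom 0 of the 5 were called, where they called 0, 0.174 and 0% of the genes to which they gave an adjusted p, respectively. In edgeR 0 of the 5 had an unadjusted p under 0.05, beside 4.38% of tested genes. The intervals still allow differences of more than 1 log2 unit in either direction for Top2a, and in the lower direction for Ccnb1, Cdk1 and Mki67. The sign turned without injury replicate 1 for Cdk1 (log2 0.14), Mki67 (0.091) and Top2a (0.25), without rapamycin replicate 3 for Top2a (0.07), and for Pcna without rapamycin replicate 2 (-0.051) or injury replicate 3 (-0.03).

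TDN was compared with injury alone, to characterise the change that goes with the treatment. All 5 genes averaged lower in TDN and none passed the adjusted test. Ccnb1 averaged 6.15 ± 1.39 CPM against 25.0 ± 10.5 CPM, 4.07-fold lower (log2 -2.02, 95% interval -2.90 to -1.15, edgeR adjusted p = 0.649). Cdk1 averaged 7.61 ± 1.27 against 30.1 ± 16.0 CPM, 3.95-fold lower (log2 -1.98, 95% interval -3.16 to -0.80), and Top2a 17.9 ± 1.3 against 55.6 ± 26.3 CPM, 3.11-fold lower (log2 -1.64, 95% interval -2.87 to -0.40). Mki67 averaged 22.1 ± 3.5 CPM, 2.20-fold lower (log2 -1.14, 95% interval -2.11 to -0.17), and Pcna 48.6 ± 6.7 CPM, 1.59-fold lower (log2 -0.66, 95% interval -1.29 to -0.04). The other 4 genes had the same edgeR adjusted p of 0.649. No TDN library reached the lowest injury library in any of the 5 genes, where 9.31% of tested genes lay apart in this way. All 5 had an unadjusted p under 0.05, beside 4.45% of tested genes in that direction, and 0.0114% of tested genes had a smaller p than Ccnb1. By edgeR 0 of the 5 were called, as were 0% of all tested genes, and limma voom called 0. DESeq2 called 1 of the 5, Ccnb1 (DESeq2 adjusted p = 0.00156), and 0.255% of the genes to which it gave an adjusted p. Over 20 alternatives the adjusted p of Ccnb1 ran from that value to 0.990 (edgeR without injury replicate 1). The injury libraries enter both this comparison and that of injury with sham, so the directions are not independent. Without injury replicate 1, the library with the highest injury values, the log2 difference was -1.65 for Ccnb1, -1.53 for Cdk1, -1.20 for Top2a, -0.80 for Mki67 and -0.42 for Pcna.

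**Figure D2:**
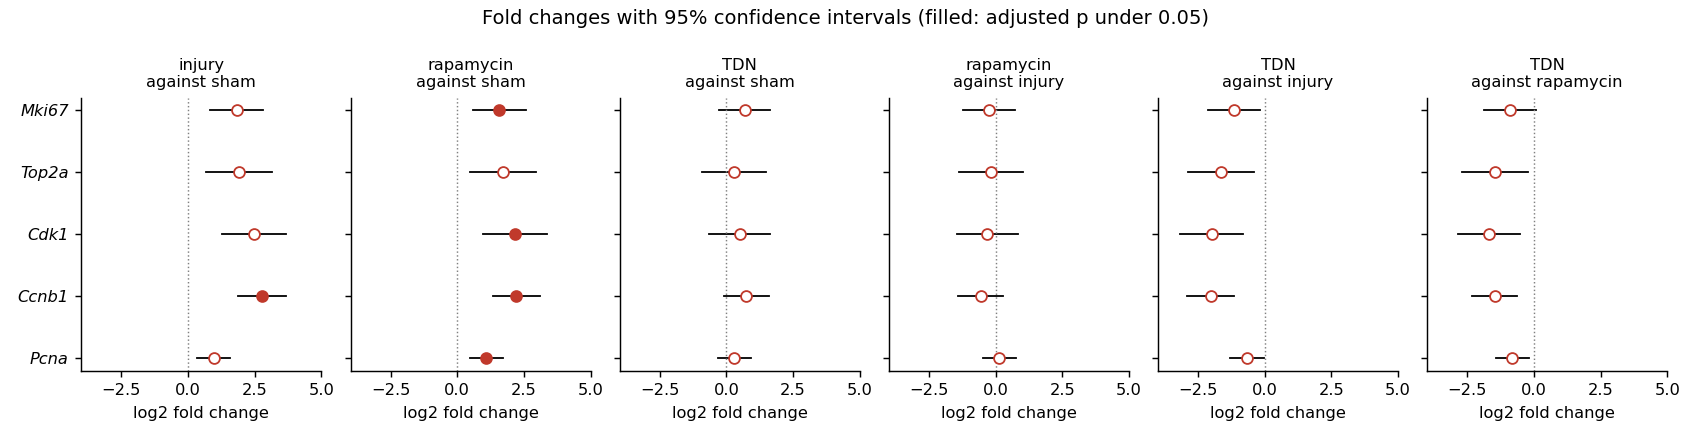
Log2 fold changes (horizontal axes) of the 5 genes in the 6 comparisons, from the edgeR fit over 12 libraries; lines are 95% confidence intervals that are not adjusted for multiple testing, and filled points passed an adjusted p under 0.05. Filled points occur for Ccnb1 after injury and for Mki67, Cdk1, Ccnb1 and Pcna in rapamycin against sham, and the TDN against injury intervals lie below 0 with no filled point.

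Against rapamycin, TDN tissue also averaged lower in all 5 genes. The log2 differences were -1.67 for Cdk1 (95% interval -2.84 to -0.50), -1.47 for Ccnb1 (-2.33 to -0.62), -1.46 for Top2a (-2.69 to -0.23), -0.89 for Mki67 (-1.86 to 0.08) and -0.80 for Pcna (-1.43 to -0.18). The edgeR adjusted p ranged from 0.161 to 0.226, so 0 of the 5 were called, as were 0% of tested genes, and 4 of the 5 had an unadjusted p under 0.05, beside 18.0% of tested genes in that direction. Limma voom called 0, and DESeq2 called 2 of the 5, Ccnb1 and Cdk1. It called 1738 genes, 11.2% of those to which it gave an adjusted p. The TDN libraries lay below all rapamycin libraries for 4 of the 5 genes, beside 17.4% of tested genes. Without rapamycin replicate 3, which had the lowest level of its group for each of the 5 genes, edgeR called 3 of them, Ccnb1, Cdk1 and Pcna, and 26.8% of all genes tested in that fit.

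The last comparison set TDN beside the uninjured urethra. The means were higher in TDN by log2 0.74 for Ccnb1 (95% interval -0.10 to 1.59), 0.68 for Mki67 (-0.28 to 1.65), 0.50 for Cdk1 (-0.64 to 1.64), 0.29 for Pcna (-0.33 to 0.91) and 0.27 for Top2a (-0.93 to 1.48). None was called by edgeR, DESeq2 or limma voom, which called 0, 1.86 and 0% of the genes to which they gave an adjusted p, respectively. By edgeR 0 of the 5 had an unadjusted p under 0.05, beside 5.31% of tested genes. Ccnb1 was the 1 gene whose libraries lay apart, as 15.7% of tested genes did in that direction. These intervals do not show that TDN tissue had returned to the sham level, since for each of the 5 genes they reach a difference of at least 0.91 log2 units. The differences moved with the sham libraries: without sham replicate 3 the log2 difference was 1.07 for Cdk1 and 1.11 for Ccnb1, and without sham replicate 2 it was 0.24 and 0.54, and the sign turned for Top2a (-0.10).

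The sham libraries differed more in 4 of these genes than in most others. The SD of log2 CPM over the 3 sham libraries was 1.19 for Top2a, 0.96 for Mki67, 0.80 for Cdk1 and 0.58 for Ccnb1, where the median over all tested genes was 0.17. These values exceeded those of 94.9, 93.1, 91.0 and 86.4% of tested genes, respectively. Pcna, with 0.23, exceeded 61.1%. Top2a was 5.22-fold higher in sham replicate 3 than in replicate 2, Mki67 3.76-fold, Cdk1 3.01-fold and Ccnb1 2.24-fold. For Ccnb1 the counts were 135 (95% Poisson interval 113 to 160) and 289 (257 to 324). In TDN the same 4 genes had SDs of 0.10 to 0.31, beside a median of 0.19, and their libraries differed by at most 1.45-fold. In injury their SDs were 0.49 to 0.85, beside a median of 0.51. In rapamycin they were 0.32 to 0.74, all below the median of 0.77, and exceeded those of 15.9 to 47.7% of tested genes.

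**Figure D3:**
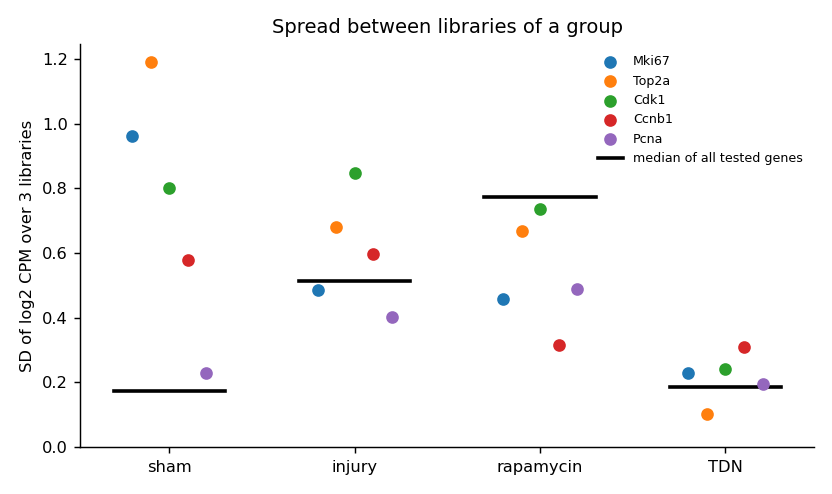
SD of log2 CPM over the 3 libraries of each group (vertical axis) for the 5 genes (points) and the median over all tested genes (black lines). In sham, 4 genes lie at 0.58 to 1.19 above a median of 0.17, while in TDN the 5 genes lie at 0.10 to 0.31 around a median of 0.19.

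Counts of the other genes per 100 Pcna counts of the same library compare them with the replication clamp without any scaling factor. Ccnb1 stood at 9.72, 6.20 and 11.3 per 100 Pcna counts in sham and at 36.2, 31.2 and 27.6 in injury. It stood at 22.1, 16.4 and 24.0 in rapamycin and at 13.8, 12.3 and 11.6 in TDN. For Ccnb1 each pair of groups lay apart, in the order injury, rapamycin, TDN and sham, with TDN and sham close to each other (11.6 and 11.3 at their nearest). Of the 17520 tested genes other than Pcna, 2 (0.0114%) lay apart in this order. Ccnb1 is 1 of these 2 and the order is its own, so the share is no test of it. Separation in other orders was not counted. Cdk1 averaged 13.1 ± 5.6 per 100 Pcna counts in sham, 37.2 ± 11.0 in injury, 27.7 ± 5.5 after rapamycin and 15.6 ± 0.9 after TDN (SD, n = 3 each), with overlap between injury and rapamycin and between TDN and sham. Top2a averaged 35.8 ± 21.5, 69.6 ± 13.5, 56.9 ± 13.6 and 37.0 ± 2.5 in the same order of groups, and Mki67 33.8 ± 16.4, 62.8 ± 9.2, 48.8 ± 5.0 and 45.5 ± 4.5. All 4 genes were higher relative to Pcna in every injury library than in every sham or TDN library, as were 1.04% of those tested genes. Pcna itself was higher in every injury library than in every sham or TDN library, which lowers this ratio in injury for an unchanged gene. The pattern counted is also that of the 4 genes themselves, so the 1.04% is no test of them. The separation of injury from sham was narrow for Top2a, at 56.89 in injury replicate 3 and 55.95 in sham replicate 3. Each of these separations had the smallest p that 3 libraries against 3 allow (exact two-sided permutation p = 0.1, adjusted over 24 comparisons p = 0.15), so none passed a threshold of 0.05. Mki67 relative to Pcna was also lower in every rapamycin library than in every injury library (exact permutation p = 0.1, adjusted p = 0.15), as were 1.08% of those tested genes, but the nearest libraries were almost equal at 51.8 and 52.2 per 100 Pcna counts. The 1.08%, too, was counted for a separation that Mki67 itself shows, and is no test of it.

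**Figure D4:**
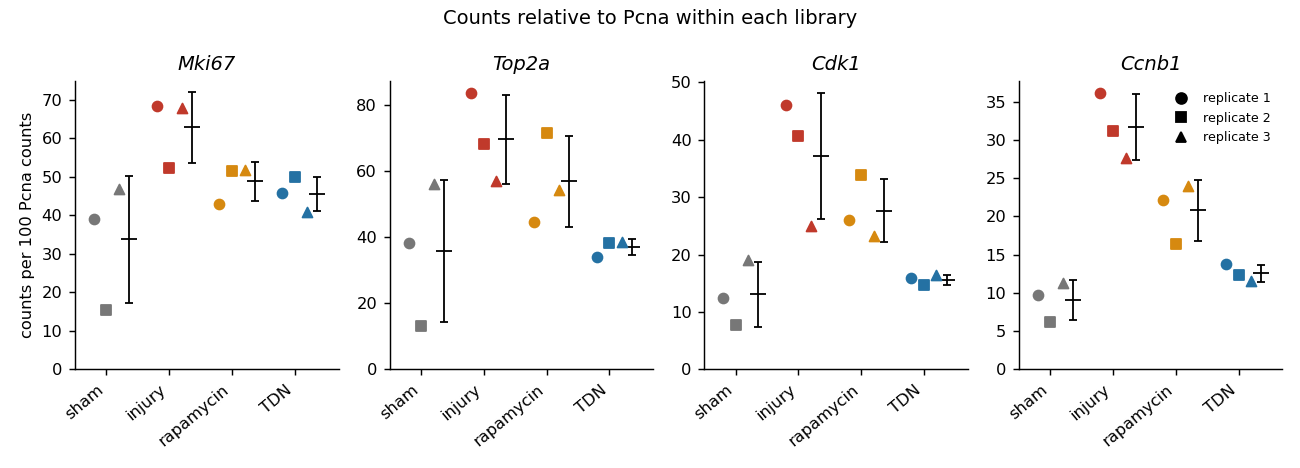
Counts of 4 genes per 100 counts of Pcna in the same library (vertical axes, linear, from 0); symbols give the replicate number, and the black mark and bar the mean ± SD of 3 libraries. All 4 ratios are higher in each injury library than in each sham or TDN library, and for Ccnb1 the 4 groups do not overlap. For Top2a, injury replicate 3 (56.89) lies just above sham replicate 3 (55.95).

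The 5 transcripts also varied together between libraries of the same group. With group means removed, Pearson's r between log2 CPM over the 12 libraries was 0.958 for Mki67 and Top2a, 0.922 for Top2a and Cdk1 and 0.895 for Cdk1 and Ccnb1, and lowest at 0.645 for Mki67 and Pcna. These are descriptions of 12 libraries in which all genes share depth, scaling and tissue composition. No share over all genes was computed for these r. The r that follow were computed with group means left in, so they also hold the differences between groups. Of the 17516 other tested genes, 272 (1.55%) had an r above 0.9 with the mean scaled log2 CPM of the 5 genes. Each of the 5 had an r of 0.949 to 0.994 with that mean, of which it is part. The most similar were ENSRNOG00000008450 (r = 0.992) and ENSRNOG00000009785 (r = 0.990), for which the files pair no symbol. ENSRNOG00000008450 averaged 3.46 ± 2.17 CPM in sham, 26.3 ± 15.0 in injury, 26.2 ± 11.6 after rapamycin and 7.03 ± 0.94 after TDN, and ENSRNOG00000009785 1.80 ± 1.13, 19.1 ± 9.6, 17.3 ± 11.4 and 4.09 ± 0.98 CPM (SD, n = 3 each).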

How the data were processed

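RNA was extracted from urethral tissue and sequenced from poly(A)-enriched paired-end Illumina libraries, per the labels' protocols. The authors deposited whole-number counts per Ensembl gene ID without normalization. Reads were placed on Rnor_6.0, per the submitters' processing notes. The aligner, counter, annotation release and use of strand were not given in the sources used here. Overlapping or antisense genes and near-identical copies therefore could not be told apart. Groups came from the treatment labels and columns from the titles; 3 further columns were not used here.

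Tests used the quasi-likelihood method of edgeR 4.0.16 (R 4.3.3): TMM scaling, default filter by group (17521 of 32623 genes kept), 1 coefficient per group over all 12 libraries, no covariate, 8 residual degrees of freedom, Benjamini-Hochberg adjustment over all tested genes, threshold 0.05. The SE was obtained from the log2 fold change and the root of F. Log2 CPM used a prior count of 2. The fit was also run on simulated data, and the share of changes it recovered there is not given here. Alternatives were DESeq2 1.42.0, limma 3.58.1 voom, other scalings and samples, no filter, leave-one-out fits and a replicate block. Shares called by DESeq2 are of the genes to which it gave an adjusted p, which are fewer than those tested.

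Titles number each group's libraries 1 to 3 and do not state a pairing. Deviations from group means correlated positively in all 3 same-numbered pairs of sham and injury (0.107, 0.138 and 0.261). They also did so in all 3 pairs of injury and rapamycin (0.0921, 0.156 and 0.55). Every other comparison held a negative value. The named genes are the 5 members, whatever their result, and the non-members with the highest correlation to their mean, of which 2 are printed by ID. Members, lists and motifs were chosen with earlier results of these data, or the promoters, known. Other cell cycle lists and cell type markers were fixed by symbol and not evaluated, because 0 of the IDs matched the 47357 genes of the RefSeq table (GRCr8).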

Additional observations from a re-analysis of the deposited data

How the results depend on the processing

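The direction held under every alternative for all 5 genes in injury against sham, rapamycin against sham, TDN against injury and TDN against rapamycin, while calls moved. Shares for DESeq2 below are of the genes to which it gave an adjusted p. After injury, where 1 of 5 was called, DESeq2 and the fit without the rapamycin group called 5 (and 11.1 and 15.1% of genes), the fit of only the 6 libraries compared called 0 (0%), and leaving out single libraries gave 0 to 5 (0 to 11.9%). In rapamycin against sham, where 4 were called, no filter on low counts gave 2 (5.07% of all genes), only the 6 libraries 0 (0.202%), and single libraries left out 0 to 5 (0.0056 to 40.6%). In TDN against injury DESeq2 called 1 (0.255%) where edgeR called 0 (0%). In TDN against rapamycin DESeq2 called 2 (11.2%) and leaving out single libraries gave 0 to 3 (0 to 26.8%). In the other 2 comparisons 0 were called throughout. The alternatives called 0 to 0.174% of genes in rapamycin against injury and 0 to 5.88% in TDN against sham. The 5.88% came from the fit of only the 6 libraries compared. With the replicate block, 1 gene was called after injury (0.434% of all genes) and 3 in rapamycin against sham (14.8%). No call other than that of Mki67 in rapamycin against sham changed. With 1 library left out, the log2 fold change of Top2a in TDN against sham ranged from -0.10 (without sham replicate 2) to 0.98. In rapamycin against injury Mki67 ranged from -0.50 to 0.091, Cdk1 from -0.70 to 0.14 and Top2a from -0.63 to 0.25, each positive without injury replicate 1, and Top2a also without rapamycin replicate 3 (0.07). Pcna there ranged from -0.051 (without rapamycin replicate 2; -0.03 without injury replicate 3) to 0.38. The cause of these shifts was not tested. The lowest count of any of the 5 genes was 135, and no alternative varied the depth.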
